A study of Homo sapiens with 12 samples.

Results

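The 43 collagen chain genes described here were followed in H9 human embryonic stem cells before and after 6 days of differentiation. They are all genes whose symbol follows the pattern COL, number, A, number and that had a probe set naming a single gene, 43 of 19775 genes measured. Each gene is represented by the probe set with the highest mean log2 signal over the 12 arrays, out of 112 collagen probe sets. By chain type, 11 genes encode fibrillar chains, 6 encode the type IV chains of basement membranes and 26 encode other chains.

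Collagens are trimers of alpha chains wound into a triple helix. Fibrillar chains form the banded fibrils of connective tissue, type IV chains form the sheet-like network under epithelia and around vessels, and the remaining types decorate fibrils, anchor basement membranes, build beaded or hexagonal networks, or span the cell membrane. Chains are hydroxylated and folded in the endoplasmic reticulum, and fibrillar procollagens are then cleaved and cross-linked outside the cell. Undifferentiated human embryonic stem cells grow as an epithelium, and early embryonic epithelia lay down basement membrane.

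All 12 arrays came from H9 cells at passages 28 to 35 that carried a Tet-on system for GCNF, the orphan nuclear receptor encoded by NR6A1, so the untreated controls carried the construct too. There were 4 groups with 3 arrays each: undifferentiated cells in mTeSR on Matrigel without treatment (d0); the same culture with 1 µg/ml doxycycline (Dox) for 4 days (d0 with Dox); cells in DMEM/F12 with 15% serum and 1 µM retinoic acid (RA) for 6 days; and cells in that serum medium with 1 µg/ml Dox for 6 days. The study asked how GCNF regulates genes in undifferentiated cells (d0 with Dox against d0) and in differentiating cells (Dox against RA at day 6). Dox-treated cells without the construct and day 6 cells without either agent were not analysed here, and effects of Dox as a drug, of serum or of medium cannot be told apart from those of GCNF, RA or time. Replicates are named biological, but the source of each culture is not described, and the p-values reflect only how these arrays vary among themselves.

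All 7 probe sets of NR6A1 were higher on every array of d0 with Dox than on every d0 array. At day 6 they disagreed: 3 were higher on every RA-labelled array and 3 on every Dox-labelled array. One of them read 355.2, 395.3 and 257.5 on the RA-labelled arrays but 31.6, 14.5 and 41.6 on the Dox-labelled arrays. CYP26A1, a retinoic acid hydroxylase that RA is known to induce, read 271 ± 37.0 on the RA-labelled arrays and 29594 ± 1005 on the Dox-labelled arrays (SD, n = 3 each), against the labels. The day 6 groups are therefore called RA-labelled and Dox-labelled throughout. For the collagen genes and their chain ratios, exchanged labels were tried in comparisons with day 6 arrays, and the values that turn sign are given. Changes of other genes from day 0 to day 6 are given with the labels as deposited. Median probe set intensity was 64.2 to 78.0 per array, and replicates correlated at 0.986 to 0.988 over all genes. Of 7 pluripotent stem cell markers measured, all fell from day 0 to day 6 in both series, where 25.2% and 23.9% of all genes were called lower. In RNA of a whole culture, fewer cells of a type and less RNA per cell cannot be told apart.

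The type IV genes lie in head-to-head pairs, and bases between the paired start sites are shown because the results below turn on how far the members of a pair moved together. Coordinates and sequences are those of the RefSeq promoter windows on GRCh38.p14, read on the plus strand. Capitals mark CCAAT and GGGCGG boxes on either strand, which are common promoter motifs. The segment of COL4A1 and COL4A2 is the whole gap between the start sites, which lie 127 bases apart at chr13:110307158-110307283. The nearer start site of COL4A6 lies 380 bases from that of COL4A5 the start sites of COL4A4 and COL4A3 lie 419 bases apart, and the bases held by both windows of each pair are at chrX:108439588-108439708 and chr2:227164374-227164455.
COL4A1/COL4A2: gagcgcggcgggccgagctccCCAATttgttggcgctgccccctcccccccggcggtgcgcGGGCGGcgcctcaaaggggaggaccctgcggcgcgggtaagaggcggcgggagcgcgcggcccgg
COL4A6/COL4A5: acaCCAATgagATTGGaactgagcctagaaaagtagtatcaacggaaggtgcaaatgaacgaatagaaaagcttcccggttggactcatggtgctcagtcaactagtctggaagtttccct
COL4A4/COL4A3: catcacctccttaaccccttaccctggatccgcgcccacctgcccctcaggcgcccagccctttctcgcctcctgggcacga
The 3 segments differ in composition: 80.2% of the bases between COL4A1 and COL4A2 are G or C, against 44.6% for COL4A6 and COL4A5. The COL4A1 and COL4A2 gap holds 1 CCAAT box and 1 GGGCGG box, the COL4A6 and COL4A5 segment 2 CCAAT boxes, and the COL4A4 and COL4A3 segment neither. The last 2 segments are only part of their gaps, so these box counts are not those of whole gaps. Between the start sites but outside the segments, GGGCGG begins at -117 and -23 from the COL4A3 start site. Likewise, CCAAT begins at -118 from the nearer COL4A6 start site.

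Windows of 300 bases, from 250 before to 50 after a start site, were given for 31 of the 43 genes, 43 windows in all, some sharing bases. On either strand, TCAAGGTCA, an extended nuclear receptor site that GCNF is known to bind, was in 0.353% of 35116 windows and in none of the collagen windows. AGGTCA repeated directly with no spacer, a preferred GCNF site, was in 0.0171% of all windows. AGGTCA repeated with 5 bases between, a spacing bound by retinoic acid receptors, was in 0.0057%, and neither was in a collagen window. AGGTCA alone, which is part of these motifs, was in 13.8% of all windows and in 1 of the 43 collagen windows, that of COL7A1. That stretch of COL7A1, on the minus strand at chr3:48595533-48595571, is shown with both of its AGGTCA copies, here in reverse complement, in capitals.
COL7A1: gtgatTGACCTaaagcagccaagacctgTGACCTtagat
These matches describe letters in a short window and say nothing of binding. TATAAA was in 16.3% of collagen windows and 11.5% of all windows, CCAAT in 30.2% and 34.6%, and GGGCGG in 55.8% and 45.0%.

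More collagen genes were called between day 0 and day 6 than with treatment within a day. From d0 to the RA-labelled arrays, 19 of 43 rose, 11 fell and 13 did not pass, where 50.5% of all genes were called (25.3% higher and 25.2% lower). From d0 with Dox to the Dox-labelled arrays the counts were again 19, 11 and 13, where 46.1% of all genes were called (22.2% higher and 23.9% lower). A call is a limma adjusted p under 0.05 over all genes, and a log2 fold change is a difference of group means of log2(intensity + 16). Rises of at least 2-fold were called for 16 collagen genes in each series, against 10.7% and 8.74% of all genes, and falls of that size for 6 and 5, against 10.6% and 8.61%. The median log2 fold change of the 43 was 0.27 and 0.19, against -0.01 and -0.03 over all genes. These series share no array: 17 genes rose in both, 8 fell in both, 9 passed in neither, and COL2A1 was called in opposite directions. Day 0 and day 6 arrays were fully separated for 32 and 33 collagen genes, against 56.3% and 55.7% of all genes.

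**Figure D1:**
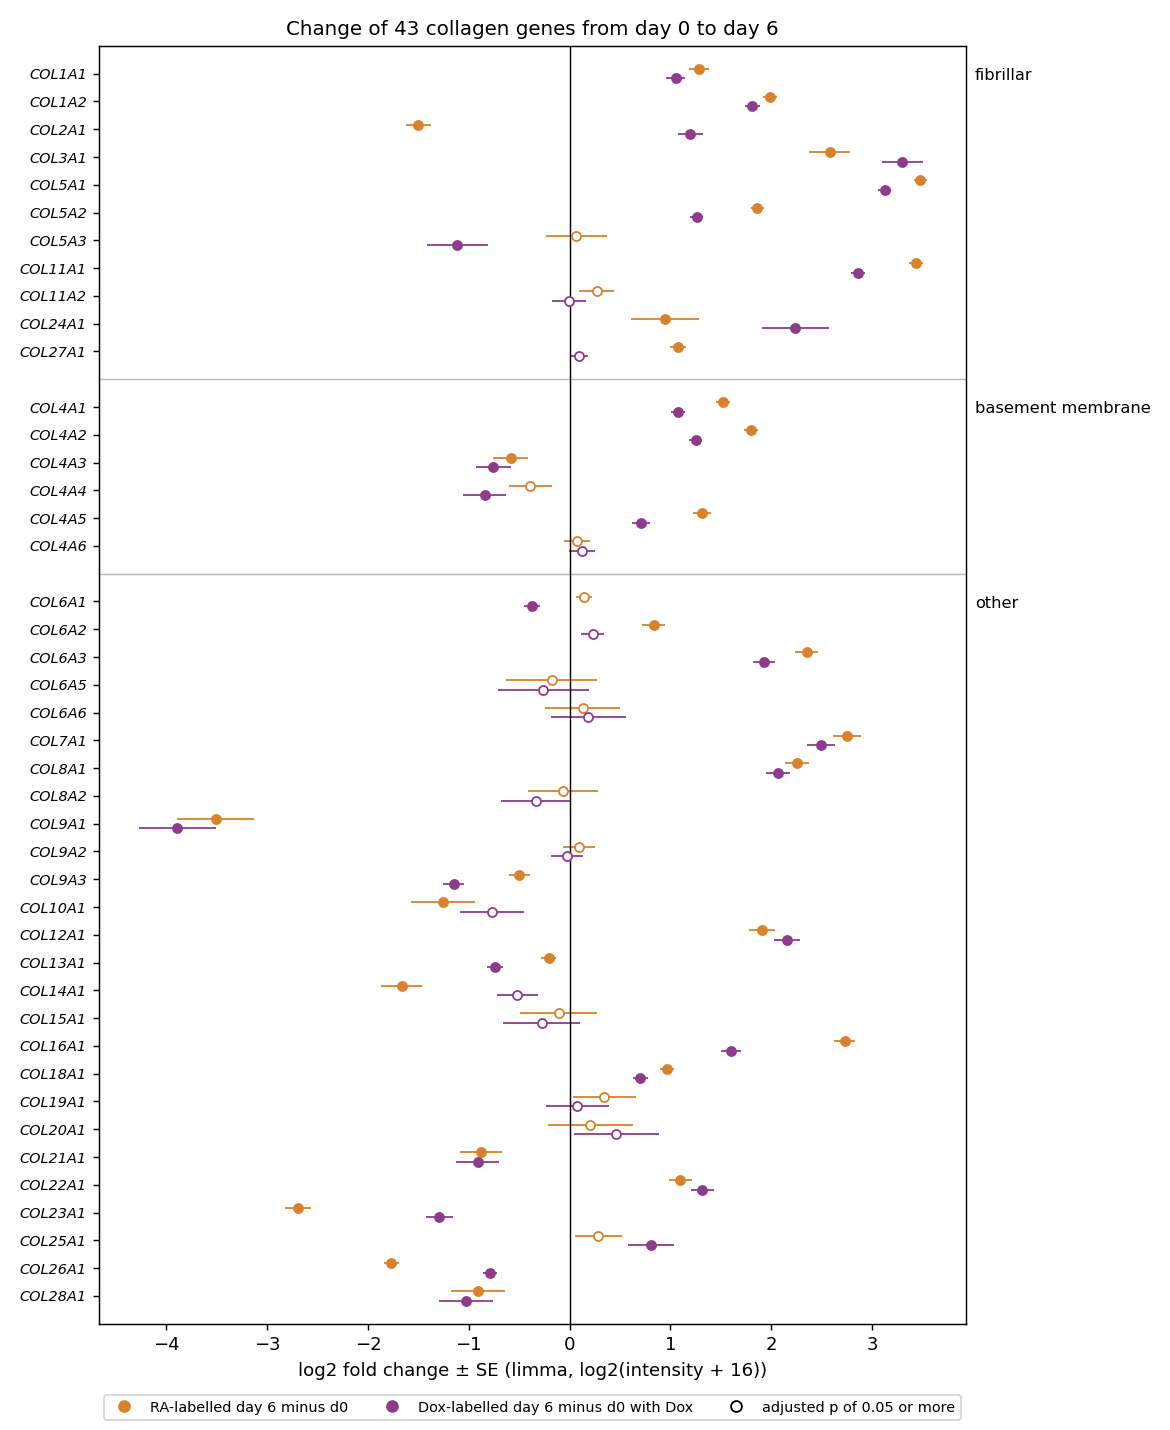
Log2 fold change ± SE from day 0 to day 6 for the 43 collagen genes by chain type, in the RA-labelled series (orange) and the Dox-labelled series (purple), with open points where the adjusted p was 0.05 or more. Most fibrillar genes lie right of 0 in both series, COL2A1 lies on opposite sides, and COL9A1 has the lowest values (-3.51 and -3.89).

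Fibrillar genes accounted for 8 of the 19 rises in each series, with 1 fall and 2 genes that did not pass. The median change over the 11 was 1.29 to the RA-labelled and 1.26 to the Dox-labelled arrays. COL5A1 and COL11A1, chains of the minor types V and XI that help set fibril diameter, were the highest rises of the class in the RA-labelled series with the chosen probe sets. Some dimmer probe sets of the type I chains, given below, rose further in that series than any of COL11A1. COL5A1 read 2084, 1902 and 2087 at d0 and 23223, 21853 and 23178 on the RA-labelled arrays, a log2 fold change of 3.48 ± 0.06 (adjusted p = 4.27e-10). It read 1948, 1936 and 1935 at d0 with Dox and 16764, 16937 and 17438 on the Dox-labelled arrays (3.13 ± 0.06, adjusted p = 4.8e-10). Every day 6 array was above every day 0 array, by about an order of magnitude. COL11A1 read 1563, 1528 and 1549 at d0 and 17231, 16176 and 17428 on the RA-labelled arrays (3.44 ± 0.07, adjusted p = 6.59e-10). It read 1969, 1890 and 1730 at d0 with Dox and 13031, 13476 and 14337 on the Dox-labelled arrays (2.86 ± 0.07). Both genes were brighter on all RA-labelled than on all Dox-labelled arrays.

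COL3A1, the chain of the homotrimeric type III collagen of soft tissue, rose in both series, and the difference between its changes did not pass the test. It read 1385, 1210 and 1144 at d0 and 9434, 8188 and 5491 on the RA-labelled arrays (2.58 ± 0.21, adjusted p = 2.03e-06). It read 1267, 1076 and 912.4 at d0 with Dox and 11075, 12353 and 9072 on the Dox-labelled arrays (3.30 ± 0.21, adjusted p = 5.06e-07). Day 6 arrays spread more for this gene than for the other bright fibrillar genes, and the RA-labelled and Dox-labelled arrays overlapped. COL5A2, the partner of COL5A1 in type V, read 7490, 7273 and 7439 at d0 and 28629, 24925 and 27462 on the RA-labelled arrays (1.86 ± 0.07, adjusted p = 8.49e-09). It read 9190, 8862 and 8866 at d0 with Dox and 21081, 21416 and 22146 on the Dox-labelled arrays (1.26 ± 0.07). Its 4 groups did not overlap.

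The type I chains, the main collagen of bone, skin and tendon, were already bright in undifferentiated cells. COL1A1 read 14556, 16656 and 13649 at d0 and 39184, 31976 and 38414 on the RA-labelled arrays (1.29 ± 0.10, adjusted p = 1.33e-06). It read 17931, 17995 and 17824 at d0 with Dox and 38173, 37206 and 36218 on the Dox-labelled arrays (1.05 ± 0.10). Day 6 arrays were all above day 0 arrays, and COL1A1 reached up to 90.7% of the signal of the brightest probe set on an array. COL1A2 read 9364, 8089 and 8867 at d0 and 36225, 32761 and 35592 on the RA-labelled arrays (1.99 ± 0.07, adjusted p = 9.94e-09). It read 10014, 9636 and 10062 at d0 with Dox and 35384, 33952 and 35215 on the Dox-labelled arrays (1.81 ± 0.07). With these probe sets, the day 6 groups overlapped for both chains. Other probe sets of both genes gave rises of other sizes. A second COL1A1 probe set went from a mean of 1681 to 25291 in the RA-labelled series (3.90, adjusted p = 3.66e-09 over all probe sets) and from 2093 to 29434 in the Dox-labelled series (3.80). Another COL1A2 probe set went from 359.3 to 6479 (4.12) and from 463.7 to 3880 (3.02). Unlike the chosen one, it was lower on the Dox-labelled than on the RA-labelled arrays (-0.74, adjusted p = 0.00174 over all probe sets). The difference between its 2 changes passed too (-1.10, adjusted p = 0.0017). The remaining COL1A2 probe set rose about as the chosen one did (1.91 and 1.69). Of the 3 remaining COL1A1 probe sets, 1 rose by 3.90 and 3.80, 1 by 0.98 and 1.42, and the dimmest did not pass (0.50 and 0.33). The size of the type I rise therefore depends on the probe set, and whether saturation has a part in it was not tested.

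**Figure D2:**
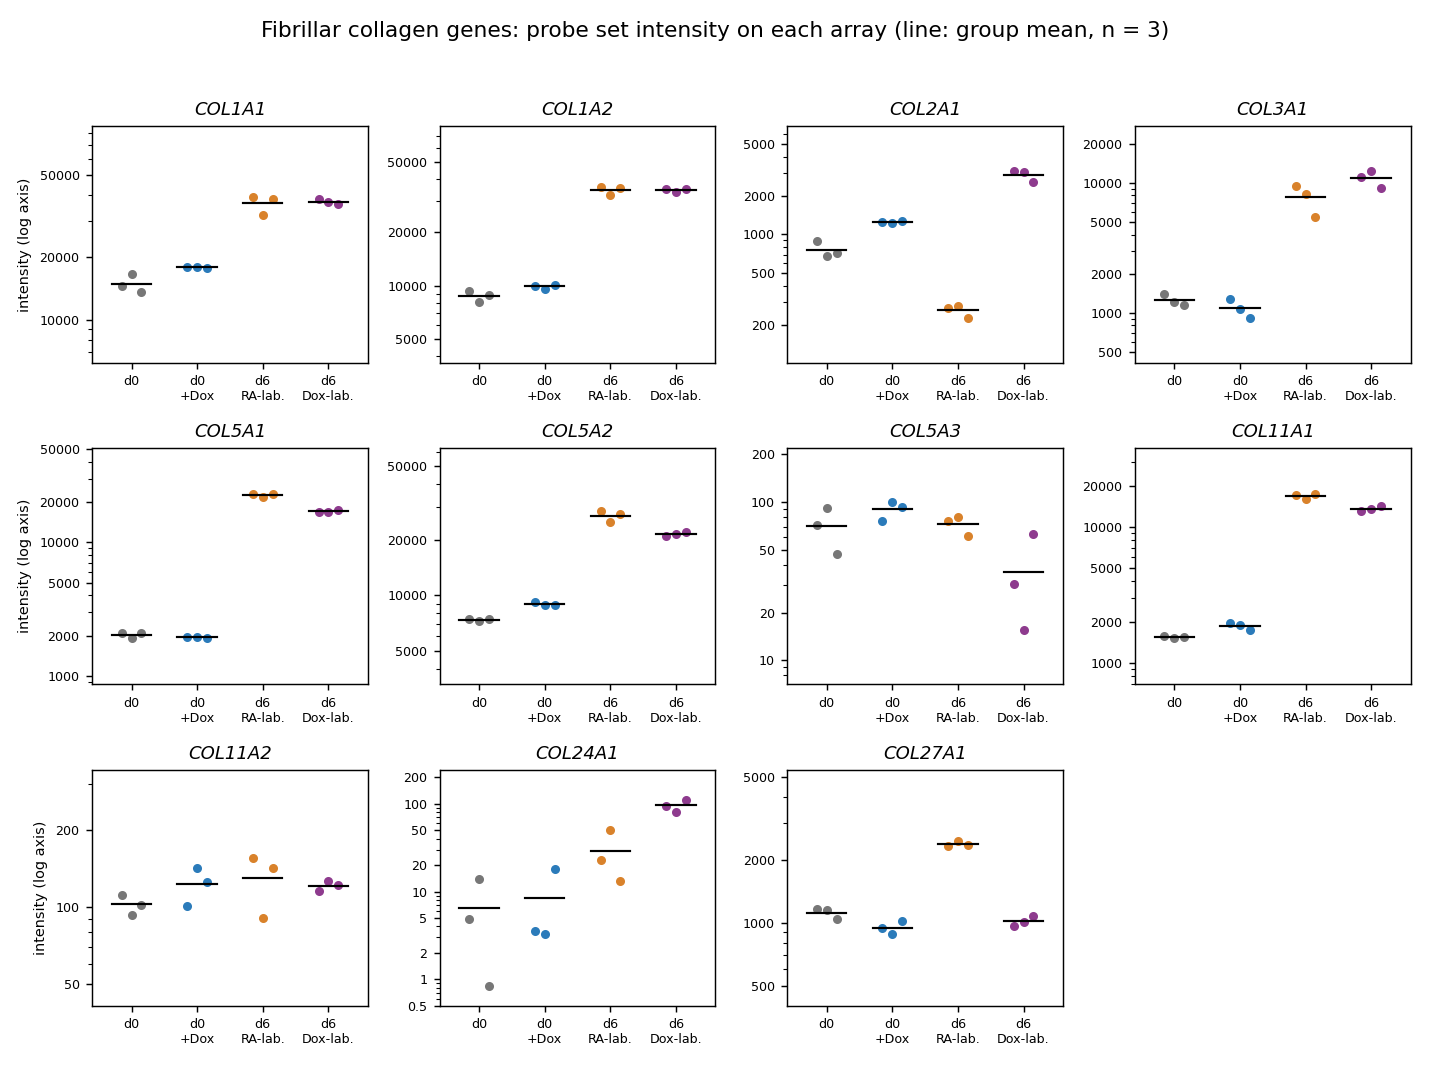
Intensity of the 11 fibrillar genes on each of the 12 arrays (points, log axis) with the group mean of 3 arrays (line); a level is not comparable between panels. COL5A1, COL11A1, COL3A1, COL1A1, COL1A2 and COL5A2 are higher on all day 6 arrays than on all day 0 arrays, and COL2A1 is lowest on the RA-labelled arrays (mean 259.6) and highest on the Dox-labelled arrays (mean 2895).

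COL2A1, the type II chain of cartilage and notochord, moved in opposite directions. It read 889.8, 681.6 and 721.1 at d0 and fell to 271.8, 282.1 and 225.1 on the RA-labelled arrays, by 1.498 ± 0.12 on the log2 scale (adjusted p = 2.63e-06). It read 1243, 1236 and 1263 at d0 with Dox and rose to 3118, 3023 and 2544 on the Dox-labelled arrays (1.199 ± 0.12, adjusted p = 1.89e-05). No 2 of the 4 groups overlapped. Its second probe set went the same way, from a mean of 147.4 to 67.0 and from 244.8 to 713.9. With the day 6 labels exchanged, the COL2A1 log2 change was 1.90 from d0 and -2.202 from d0 with Dox. COL27A1, a fibrillar chain of cartilage and developing tissues, rose in the RA-labelled series. It read 1165, 1155 and 1039 at d0 and 2332, 2456 and 2354 on the RA-labelled arrays (1.08 ± 0.08, adjusted p = 1.22e-06). It read 943.0, 882.5 and 1022 at d0 with Dox and 960.2, 1012 and 1079 on the Dox-labelled arrays, which overlapped (0.10 ± 0.08, adjusted p = 0.365). The difference between these changes passed the test of the difference itself (-0.98 ± 0.11, adjusted p = 0.000216), and its sign turned with the day 6 labels exchanged (1.45).

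The other 3 fibrillar genes were dim. COL24A1, a fibrillar chain of bone and cornea, had means of 6.56 at d0, 8.35 at d0 with Dox, 28.8 on the RA-labelled and 95.3 on the Dox-labelled arrays. Its rises of 0.95 and 2.24 depend on the pseudocount of 16, and the first was lost without d0 replicate 1, d0 replicate 3, RA-labelled replicate 1 or RA-labelled replicate 2 (adjusted p = 0.0891, 0.127, 0.0626 and 0.134). COL5A3 had means of 70.1, 89.9, 72.6 and 36.3 in that order and fell in the Dox-labelled series by 1.11 ± 0.30 on the log2 scale (adjusted p = 0.012). COL11A2, the partner of COL11A1, stayed between means of 102.4 and 129.4 and passed in neither series.

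Of the 6 type IV genes, COL4A1, COL4A2 and COL4A5 rose in both series, COL4A3 fell in both, COL4A4 fell in 1 and COL4A6 did not pass. COL4A1 and COL4A2, the chains of the ubiquitous type IV network, are the pair with 127 bases between their start sites. COL4A1 read 11334, 11378 and 11640 at d0 and 35422, 30172 and 33360 on the RA-labelled arrays (1.52 ± 0.07, adjusted p = 4.75e-08). It read 13419, 13043 and 12469 at d0 with Dox and 28030, 27025 and 27132 on the Dox-labelled arrays (1.08 ± 0.07, adjusted p = 7.77e-07). COL4A2 read 6105, 5795 and 5652 at d0 and 21116, 19620 and 20431 on the RA-labelled arrays (1.80 ± 0.07, adjusted p = 1.1e-08). It read 7211, 7635 and 6815 at d0 with Dox and 16776, 17360 and 17403 on the Dox-labelled arrays (1.25 ± 0.07). Both genes went up at day 6 on every array, and both were brightest on the RA-labelled arrays. Their second probe sets, again dimmer, rose further: 3.21 and 1.97 for COL4A1, and 3.50 and 2.08 for COL4A2.

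COL4A5 and COL4A6, the X-linked chains that form one trimer in some epithelial basement membranes, moved apart. COL4A5 read 5358, 5436 and 4683 at d0 and 13560, 12923 and 11991 on the RA-labelled arrays (1.31 ± 0.09, adjusted p = 6.15e-07). It read 6639, 7221 and 7559 at d0 with Dox and 11049, 11479 and 12399 on the Dox-labelled arrays (0.71 ± 0.09, adjusted p = 8.22e-05). Its day 6 groups lay above its day 0 groups and overlapped each other. COL4A6 read 4769, 4206 and 3618 at d0, 5480, 5677 and 5782 at d0 with Dox, 5035, 4473 and 3771 on the RA-labelled arrays and 5756, 6783 and 5937 on the Dox-labelled arrays. It did not pass from day 0 to day 6 (0.08 ± 0.13, adjusted p = 0.677, and 0.12 ± 0.13, adjusted p = 0.494). Of its other probe sets, the brighter passed in neither series (-0.11 and 0.05). The dimmer fell in the RA-labelled series (-0.68, adjusted p = 0.0112 over all probe sets) and did not pass in the Dox-labelled series (-0.31). A second, dim COL4A5 probe set, with group means of 51.2 to 71.8, passed in neither series (-0.01 and -0.37).

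COL4A3 and COL4A4, which join COL4A5 in the kidney glomerulus, were dim. COL4A3 had means of 57.8 ± 6.79 at d0, 45.7 ± 12.7 at d0 with Dox, 33.3 ± 5.28 on the RA-labelled and 20.5 ± 6.91 on the Dox-labelled arrays (SD, n = 3). Its log2 changes of -0.58 and -0.75 were called (adjusted p = 0.0161 and 0.00444), the first not without d0 replicate 1 (0.056) or RA-labelled replicate 3 (0.0611), and neither when all its probe sets were averaged. COL4A4 had means of 144.6 ± 4.11, 143.5 ± 33.1, 109.4 ± 31.6 and 72.8 ± 15.5 in the same order and fell in the Dox-labelled series (by 0.84 ± 0.21 on the log2 scale, adjusted p = 0.00807). The RA-labelled change of COL4A4 was -0.39 ± 0.21 (adjusted p = 0.163), and the difference between the 2 changes did not pass (adjusted p = 0.339).

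**Figure D3:**
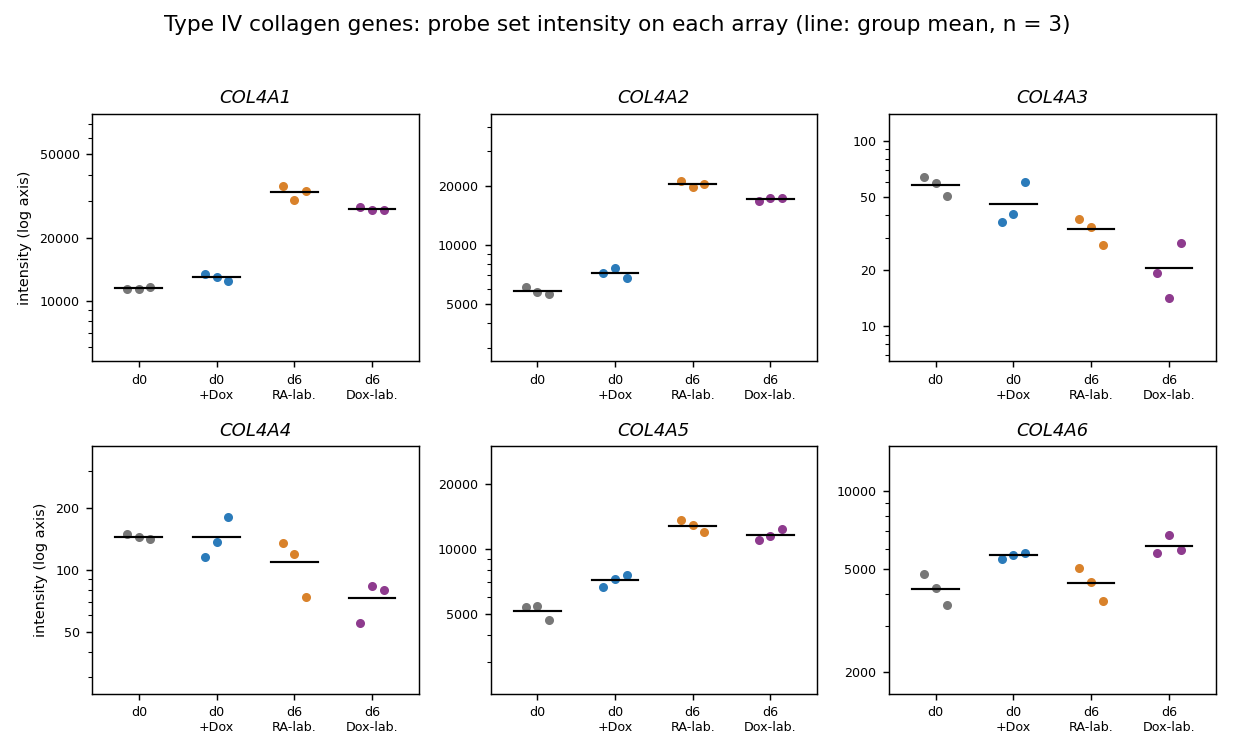
Intensity of the 6 type IV collagen genes on each array (points, log axis) with the group mean of 3 arrays (line); a level is not comparable between panels. COL4A1, COL4A2 and COL4A5 are higher on all day 6 than on all day 0 arrays, while COL4A6 lies between 3618 and 6783 on all 12 arrays.

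Among the 26 other chains, 8 rose and 9 fell in the RA-labelled series (25.3% and 25.2% of all genes), and 8 rose and 8 fell in the Dox-labelled series (22.2% and 23.9% of all genes). Of the type VI chains, which form beaded microfibrils in pericellular matrix, COL6A3 rose most. It read 447.2, 440.9 and 448.2 at d0 and 2690, 2113 and 2248 on the RA-labelled arrays (2.35 ± 0.11, adjusted p = 4.9e-08). It read 316.2, 377.8 and 314.0 at d0 with Dox and 1190, 1418 and 1353 on the Dox-labelled arrays (1.93 ± 0.11). The day 6 arrays were all above the day 0 arrays. COL6A1 read 5116, 4635 and 4960 at d0 and 5234, 5534 and 5488 on the RA-labelled arrays (0.14 ± 0.08, adjusted p = 0.179). It read 4103, 3969 and 4390 at d0 with Dox and 3232, 2910 and 3483 on the Dox-labelled arrays, where it fell by 0.37 on the log2 scale (adjusted p = 0.00342). COL6A2 read 472.0, 437.1 and 607.2 at d0 and 845.4, 951.3 and 926.1 on the RA-labelled arrays (0.84 ± 0.12, adjusted p = 0.000124). It read 467.8, 460.3 and 452.6 at d0 with Dox and 540.0, 506.3 and 586.6 on the Dox-labelled arrays (0.23 ± 0.12, adjusted p = 0.132). Its second, dimmer probe set gave the opposite pattern of calls. That probe set did not pass in the RA-labelled series (0.18, adjusted p = 0.402 over all probe sets) and rose in the Dox-labelled series (0.67, adjusted p = 0.00424). COL6A5 and COL6A6 had group means of 13.6 to 36.1 and passed in no comparison.

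COL7A1, the chain of the anchoring fibrils that tie epithelial basement membrane to the tissue below, rose in both series. It read 302.9, 420.9 and 426.1 at d0 and 2789, 2532 and 2647 on the RA-labelled arrays (2.76 ± 0.14, adjusted p = 7.53e-08). It read 314.4, 261.4 and 342.7 at d0 with Dox and 1672, 1789 and 1913 on the Dox-labelled arrays (2.49 ± 0.14, adjusted p = 2.4e-07), with no overlap between day 0 and day 6. COL8A1, a network-forming chain of vessel walls and Descemet's membrane, read 1054, 1200 and 1075 at d0 and 5235, 5622 and 5174 on the RA-labelled arrays (2.25 ± 0.12, adjusted p = 9.76e-08). It read 767.2, 730.7 and 553.1 at d0 with Dox and 2745, 2891 and 3058 on the Dox-labelled arrays (2.07 ± 0.12). Its 4 groups did not overlap. COL8A2, its partner, had means of 86.9, 47.8, 84.1 and 36.2 and passed in neither series. COL10A1, the chain of hypertrophic cartilage, was dim (means of 56.2, 26.6, 14.3 and 6.92) and fell in the RA-labelled series by 1.26 ± 0.32 on the log2 scale (adjusted p = 0.00706).

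The fibril-associated chains, which sit on the surface of fibrils, moved both ways. COL16A1 read 246.9, 282.2 and 221.7 at d0 and 1797, 1673 and 1759 on the RA-labelled arrays (2.73 ± 0.10, adjusted p = 1.04e-08). It read 357.8, 327.0 and 391.4 at d0 with Dox and 1045, 1204 and 1119 on the Dox-labelled arrays (1.61 ± 0.10, adjusted p = 5.56e-07). None of its 4 groups overlapped. COL12A1, found on type I fibrils under load, read 672.2, 739.9 and 623.3 at d0 and 2581, 3106 and 2156 on the RA-labelled arrays (1.91 ± 0.13, adjusted p = 6.01e-07). It read 417.7, 424.1 and 466.0 at d0 with Dox and 1909, 1916 and 2175 on the Dox-labelled arrays (2.16 ± 0.13). COL22A1, a chain of tissue junctions, read 459.5, 422.1 and 537.2 at d0 and 1083, 987.0 and 1011 on the RA-labelled arrays (1.10 ± 0.11). It read 341.5, 422.6 and 445.3 at d0 with Dox and 966.1, 1057 and 1041 on the Dox-labelled arrays (1.32 ± 0.11). With the chosen probe sets, COL12A1 and COL22A1 overlapped between the day 6 groups and not between day 0 and day 6. A second COL22A1 probe set rose by 1.67 and 2.44. Its rise was larger in the Dox-labelled series (difference 0.76, adjusted p = 0.0163 over all probe sets), and it was higher on the Dox-labelled arrays (0.43, 0.0401). The dimmest COL22A1 probe set rose in the Dox-labelled series alone (0.22 and 0.99, adjusted p = 0.422 and 0.00214).

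COL9A1, COL9A2 and COL9A3 form type IX, which coats the type II fibrils of cartilage. COL9A1 fell most of all 43 genes. It read 347.4, 293.7 and 312.7 at d0 and 23.6, 4.42 and 15.1 on the RA-labelled arrays, where it fell by 3.51 ± 0.38 on the log2 scale (adjusted p = 2.28e-05). It read 580.9, 532.7 and 540.1 at d0 with Dox and 6.29, 59.5 and 17.3 on the Dox-labelled arrays, where it fell by 3.89 ± 0.38 (adjusted p = 1.41e-05). Since the day 6 values were near 16, the size of these falls depends on the pseudocount, and a second COL9A1 probe set had group means of 3.67 to 15.99. COL9A3 read 1389, 1267 and 1375 at d0 and 1046, 858.2 and 941.6 on the RA-labelled arrays (-0.50 ± 0.10, adjusted p = 0.00215). It read 1525, 1608 and 1446 at d0 with Dox and 736.6, 593.0 and 719.1 on the Dox-labelled arrays (-1.15 ± 0.10, adjusted p = 7.35e-06). COL9A2 kept means of 121.8 to 177.2 and passed in neither series. COL21A1 read 244.4, 225.7 and 255.9 at d0 and 131.5, 136.7 and 106.9 on the RA-labelled arrays (-0.88 ± 0.21, adjusted p = 0.00526). It read 490.4, 453.8 and 256.6 at d0 with Dox and 170.0, 218.3 and 207.4 on the Dox-labelled arrays (-0.91 ± 0.21, adjusted p = 0.00475), with Dox replicate 3 at d0 far below the other 2. COL14A1 fell in the RA-labelled series from a mean of 201.2 to 53.7 (by 1.67 ± 0.20 on the log2 scale, adjusted p = 5.37e-05). In the Dox-labelled series it was lower without overlap but not called (-0.52 ± 0.20, adjusted p = 0.0628). Its second brightest probe set fell in both series (-1.58 and -0.74, adjusted p = 0.000107 and 0.016 over all probe sets). For that probe set, the difference between the changes did not pass (0.84, 0.0843). COL19A1 and COL20A1 had group means of 5.67 to 59.2 and passed in no comparison.

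Among transmembrane and unclassified chains, COL23A1, COL13A1, COL26A1 and COL28A1 fell in both series. COL23A1, a transmembrane chain, read 463.1, 524.9 and 558.4 at d0 and 67.0, 54.5 and 78.2 on the RA-labelled arrays, where it fell by 2.69 ± 0.13 on the log2 scale (adjusted p = 6.36e-08). It read 318.5, 304.0 and 362.1 at d0 with Dox and 144.9, 118.4 and 111.9 on the Dox-labelled arrays (-1.29 ± 0.13, adjusted p = 1.83e-05). COL26A1 read 2324, 2169 and 2550 at d0 and 697.0, 678.5 and 656.2 on the RA-labelled arrays (-1.77 ± 0.07, adjusted p = 2.09e-08). It read 2771, 2891 and 3008 at d0 with Dox and 1685, 1631 and 1680 on the Dox-labelled arrays (-0.79 ± 0.07, adjusted p = 8.82e-06). Neither gene overlapped between any of its groups. COL13A1, a transmembrane chain of the neuromuscular junction, read 1251, 1198 and 1249 at d0 and 1010, 1118 and 1074 on the RA-labelled arrays (-0.21 ± 0.08, adjusted p = 0.0444). That call was lost without any 1 of the d0 replicates or without RA-labelled replicate 1 or 3 (adjusted p = 0.057 to 0.14). COL13A1 read 2315, 2232 and 2352 at d0 with Dox and 1309, 1303 and 1514 on the Dox-labelled arrays (-0.74 ± 0.08, adjusted p = 1.91e-05). COL18A1, the basement membrane multiplexin that contains endostatin, rose in both series. It read 4656, 4256 and 4862 at d0 and 9428, 8719 and 8779 on the RA-labelled arrays (0.97 ± 0.07, adjusted p = 1.2e-06). It read 5272, 5240 and 5234 at d0 with Dox and 8363, 8287 and 9038 on the Dox-labelled arrays (0.70 ± 0.07). COL25A1 rose in the Dox-labelled series from a mean of 52.9 to 100.5 (0.81 ± 0.23, adjusted p = 0.0155), a call lost without Dox-labelled replicate 1 (0.0537). COL28A1 fell in both series from means of 29.7 and 32.6 to 9.37 and 8.04, the first call being lost without d0 replicate 3, RA-labelled replicate 1 or RA-labelled replicate 3 (adjusted p = 0.0539 to 0.0624). COL15A1 had group means of 19.0 to 26.4 and passed in no comparison.

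Genes that act on collagen chains were followed as lists. Of 19 measured genes for chain modification and folding, 14 rose and none fell in the RA-labelled series, and 10 rose and none fell in the Dox-labelled series, against the 25.3% and 22.2% of all genes called higher. P4HA2, a subunit of prolyl 4-hydroxylase, rose from a mean of 832 ± 123 to 11128 ± 487 (3.73 ± 0.10, adjusted p = 1.41e-09) and from 902 ± 45.2 to 8906 ± 178 (3.28 ± 0.10). Of 14 genes for propeptide cleavage and cross-linking, 8 rose in each series, and 5 and 2 fell, where 25.2% and 23.9% of all genes were called lower. LOX, a lysyl oxidase that cross-links collagen, rose from 422 ± 19.4 to 14532 ± 1051 (5.05 ± 0.10) and from 312.0 ± 37.2 to 19681 ± 1212 (5.91 ± 0.10). BMP1, the protease that removes the C-propeptide, rose by 3.98 ± 0.16 and 3.04 ± 0.16. PCOLCE2, an enhancer of that cleavage, fell in both series (-1.47 and -1.42). Of 11 collagen receptors, 9 and 7 rose and none fell, among them ITGA11 (3.80 ± 0.15 and 2.02 ± 0.15) and DDR2 (3.17 ± 0.12 and 3.39 ± 0.12). Of 10 partners of type IV in basement membrane, 8 and 6 rose and LAMA1, a laminin chain, fell in both (-0.29 and -0.38). Mean LAMA1 signal was 2989 at d0 and 3003 on the Dox-labelled arrays, so its fall from d0 rests on the day 6 labels.

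Known regulators of collagen genes and markers of collagen-producing cells were counted in the same way. Of 13 regulators, 9 rose and none fell in the RA-labelled series, against 25.3% (higher) and 25.2% (lower) over all genes. For the Dox-labelled series the counts were 8 and 2, against 22.2% and 23.9%, and the marker counts that follow have the same background. TGFB1 rose by 4.61 ± 0.16 and 3.23 ± 0.16, and SOX9, which drives COL2A1 and COL9A1 in cartilage, by 1.67 ± 0.11 and 3.52 ± 0.11. Of 11 fibroblast and mesenchyme markers, 7 rose and 2 fell in the RA-labelled series and 8 rose and 1 fell in the Dox-labelled series. Their summed signal was 13064 to 14191 at d0, 9398 to 9952 at d0 with Dox, 17984 to 21531 on the RA-labelled and 32665 to 33070 on the Dox-labelled arrays. No mesenchyme marker had a mean under 16 in either day 6 group. The summed signal of the 8 extraembryonic and parietal endoderm markers, cells known for thick basement membrane, was 821.7 to 939.8, 1088 to 1135, 4851 to 7075 and 11864 to 13844 in that order, with 5 of 8 higher in each series and none at a mean under 16. Of 10 cartilage and notochord markers, 3 rose and CNMD and TBXT fell in the RA-labelled series, and 4 rose and CNMD and MATN3 fell in the Dox-labelled series. Their sum was 3319 to 4217 at d0, 3918 to 4149 at d0 with Dox, 2415 to 2678 on the RA-labelled and 6875 to 7472 on the Dox-labelled arrays. These sums weigh the brightest genes of a list most. On the Dox-labelled against the RA-labelled arrays, 5 mesenchyme markers were called higher and 2 lower. Of the endoderm markers, only GATA6 was called (higher), and of the cartilage markers 2 were higher and 2 lower. Over all genes, 13.7% were higher and 12.2% lower in that comparison. The part of these cell types in the collagen changes was not tested. The 3′ to 5′ signal ratio of ACTB, a measure of RNA integrity, was 3.24 ± 0.14 at d0, 3.86 ± 0.01 at d0 with Dox, 2.59 ± 0.29 on the RA-labelled and 2.33 ± 0.06 on the Dox-labelled arrays, and its part was not tested either.

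The signal ratios of 2 chains within 1 collagen type also changed between day 0 and day 6. The log2 ratio of the signals of 2 chains on 1 array was compared between groups, a measure chosen after the values had been seen. It shows unequal change and not relative amounts of chains. With 3 arrays against 3, the smallest p of the two-sided exact permutation test is 0.1. Every change named here reached it with the chosen probe sets, except those of COL4A4/COL4A3. The ratio COL5A1/COL5A2 went up by 1.62 to the RA-labelled and by 1.86 to the Dox-labelled arrays, with no overlap. COL11A1/COL11A2 went up by 3.17 and 2.87, COL8A1/COL8A2 by 2.32 and 2.40, and COL6A3/COL6A1 by 2.21 and 2.30. COL9A3/COL9A2 went down, by -0.59 and -1.13 on the log2 scale. COL9A1/COL9A2 changed by -3.60 and -3.87, with COL9A1 near 16 at day 6 and its second probe set at group means of 3.67 to 15.99. The COL4A2/COL4A1 ratio moved by 0.28 and 0.17. That of COL4A4/COL4A3, both dim, moved by 0.19 and -0.09 with overlapping arrays. The ratio of the X-linked pair, COL4A5/COL4A6, went up by 1.24 and 0.58. The probe set decided the ratios COL1A2/COL1A1 and COL4A5/COL4A6. With the second brightest probe set, COL1A2/COL1A1 went from changes of 0.70 and 0.76 to -1.99 and -2.12, and COL4A5/COL4A6 from 1.24 and 0.58 to 0.10 and -0.42. With the day 6 labels exchanged, the ratios named here other than COL4A4/COL4A3 changed in the same direction, without overlap except for COL9A3/COL9A2 from d0 with Dox (-0.28).

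**Figure D4:**
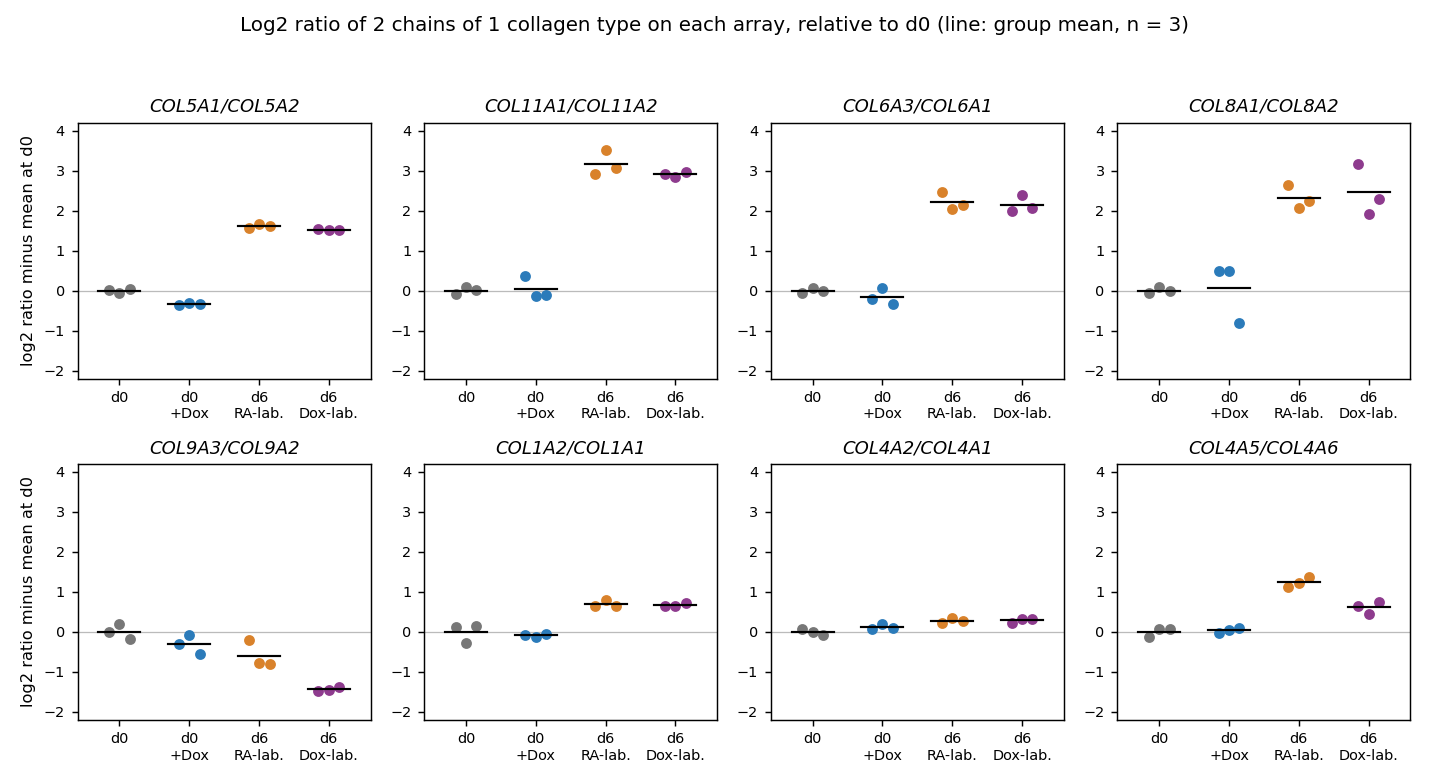
Log2 ratio of the probe set signals of 2 chains on each array, minus the mean ratio at d0 (points; line, group mean, n = 3), with the same axis in every panel. COL5A1/COL5A2, COL11A1/COL11A2, COL6A3/COL6A1 and COL8A1/COL8A2 lie higher on all day 6 than on all day 0 arrays, by 1.62 to 3.17 log2 units between d0 and the RA-labelled means, while COL4A2/COL4A1 moves by 0.28 and 0.17.

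In undifferentiated cells, Dox was followed by small changes in collagen genes. Of the 43, 8 rose, 4 fell and 31 did not pass, where 12.9% of all genes were called (7.75% higher and 5.16% lower), and no collagen gene was called at 2-fold or more, against 1.14% and 0.703% of all genes. Arrays did not overlap for 24 of 43, against 31.5% of all genes. COL13A1 rose most, from 1251, 1198 and 1249 to 2315, 2232 and 2352 (0.89 ± 0.08, adjusted p = 6.11e-05). COL2A1 rose from 889.8, 681.6 and 721.1 to 1243, 1236 and 1263 (0.71 ± 0.12, adjusted p = 0.00476). COL16A1 rose by 0.50 ± 0.10 (adjusted p = 0.0104) and COL4A5 by 0.47 ± 0.09 (adjusted p = 0.00724), both without overlap. Falls were called for COL8A1 (-0.70 ± 0.12, adjusted p = 0.00398), COL23A1 (-0.63 ± 0.13, 0.0121), COL12A1 (-0.62 ± 0.13, 0.0113) and COL6A3 (-0.40 ± 0.11, 0.0429). The rises of COL4A2 (0.30), COL26A1 (0.30), COL5A2 (0.28) and COL11A1 (0.26) were smaller.

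By class, 3 of 11 fibrillar, 2 of 6 type IV and 3 of 26 other genes rose with Dox at day 0. All 4 falls were among the other chains, the largest class. For these counts and the next, 7.75% of all genes were called higher and 5.16% lower. Of 10 basement membrane partners, 8 rose and none fell, led by NID2, a nidogen that links laminin to type IV collagen (437.6 ± 43.04 to 1169 ± 37.5, 1.39 ± 0.26, adjusted p = 0.00639). The calls of COL11A1, COL5A2, COL26A1, COL4A2 and COL6A3 were each lost without 1 or more single arrays. The 8 rises became 5 without d0 replicate 2 or without Dox replicate 1 at d0, and 4 without Dox replicate 2 at d0. With each array centred on its median, 4 collagen genes were called higher and 6 lower. That centring also turned the split over all genes, from 60.0% of calls higher to 43.3%. With all probe sets of a gene averaged, the calls of COL8A1 (-0.20, adjusted p = 0.227), COL12A1 (-0.17, adjusted p = 0.312) and COL4A5 (0.28, adjusted p = 0.275) were lost as well. Only 1 of the 9 called genes with other probe sets had another probe set called the same way, and none had one called the other way. Some genes not called by the chosen probe set had another that was called. These were COL4A6 (0.62, adjusted p = 0.0016 over all probe sets), COL6A2 (-0.93, 0.00461) and COL4A4 (1.16, 0.0216, dim).

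**Figure D5:**
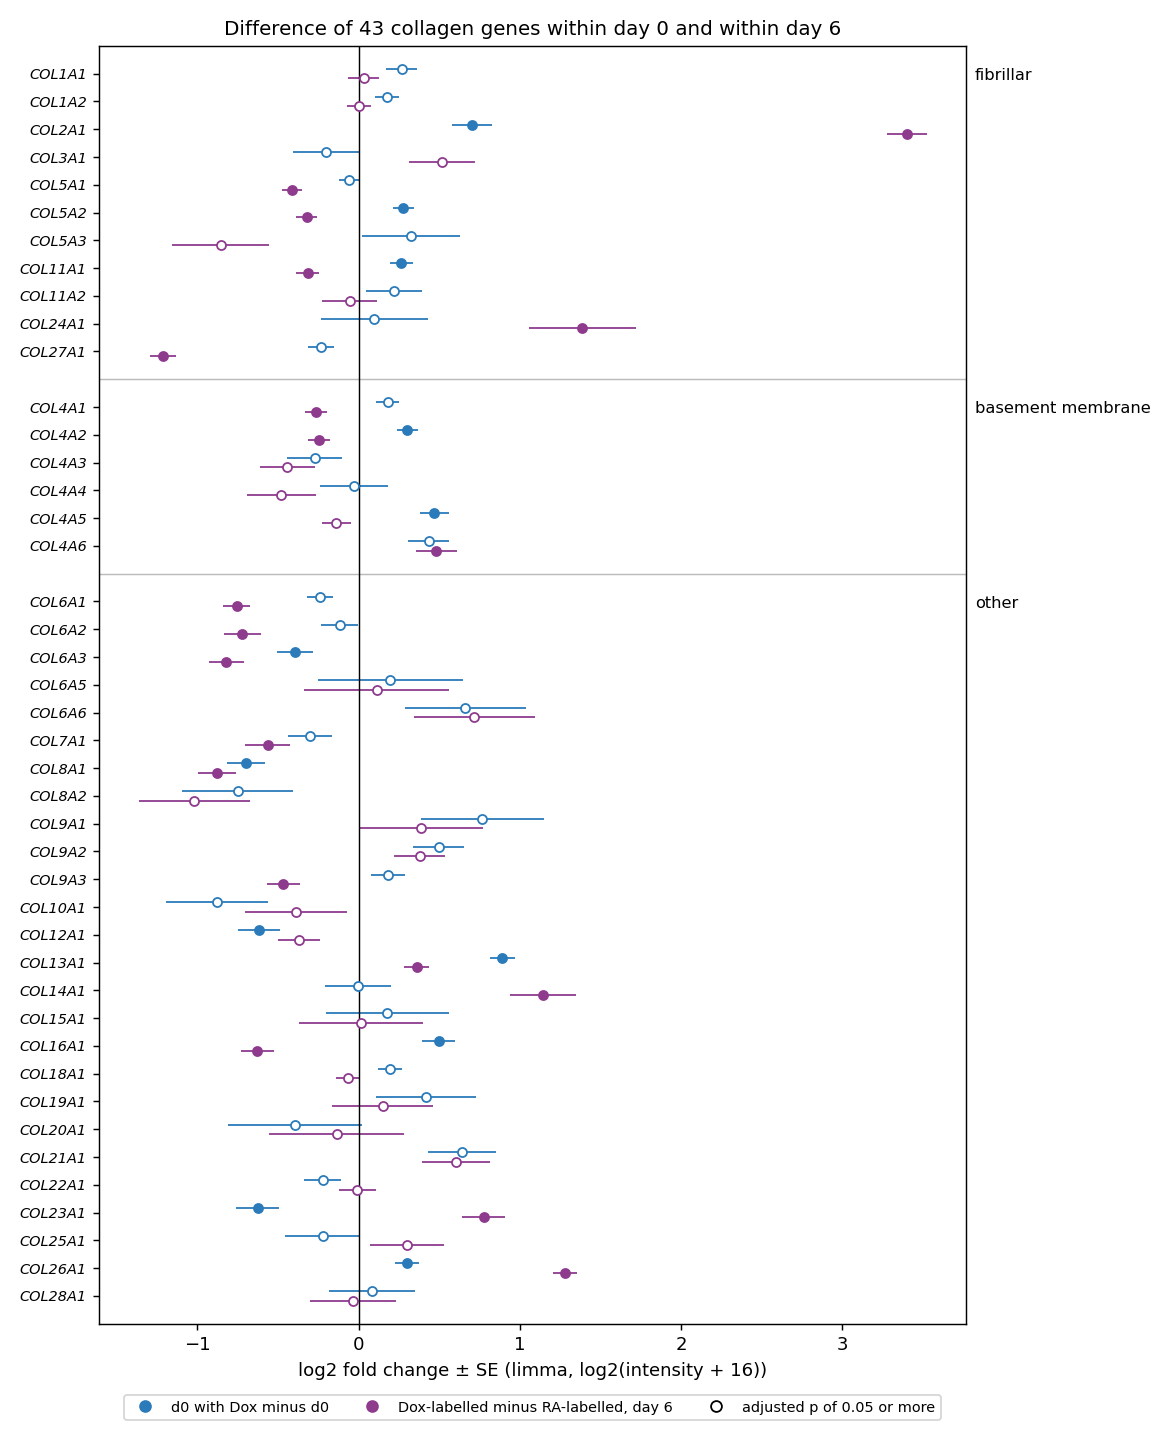
Log2 fold change ± SE within a day for the 43 collagen genes by chain type: d0 with Dox minus d0 (blue) and Dox-labelled minus RA-labelled arrays at day 6 (purple), with open points where the adjusted p was 0.05 or more. All day 0 points lie between -0.88 and 0.89, and COL2A1 stands furthest right at day 6 (3.40).

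At day 6, 7 collagen genes were higher and 13 lower on the Dox-labelled than on the RA-labelled arrays, and 23 did not pass, where 25.9% of all genes were called (13.7% higher and 12.2% lower). Arrays did not overlap for 25 of 43, against 41.6% of all genes. These comparisons share arrays with the changes above, so only their own values are given. COL2A1 had the largest difference, 271.8, 282.1 and 225.1 against 3118, 3023 and 2544 (3.40 ± 0.12, adjusted p = 7.84e-08). Differences of at least 2-fold were called for 4 genes higher and 1 lower, against 3.86% and 1.92% of all genes. Beside COL2A1, those higher were COL24A1 (1.39 ± 0.33, adjusted p = 0.0119, dim), COL26A1 (1.28 ± 0.07, adjusted p = 1.49e-06) and COL14A1 (1.14 ± 0.20, adjusted p = 0.00236). COL14A1, a chain on the fibrils of skin and tendon, read 33.2, 66.8 and 61.0 against 133.6, 116.1 and 154.7. COL23A1 (0.78), COL4A6 (0.48) and COL13A1 (0.36) were also higher. COL27A1 was 2-fold lower, 2332, 2456 and 2354 against 960.2, 1012 and 1079 (-1.22 ± 0.08, adjusted p = 3.78e-06).

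Of the 5 type VI chains, 3 were lower on the Dox-labelled arrays, COL6A3 (-0.82 ± 0.11), COL6A1 (-0.76 ± 0.08) and COL6A2 (-0.72 ± 0.12) (adjusted p = 0.000416, 9.81e-05 and 0.00116). COL8A1 (-0.88 ± 0.12), COL16A1 (-0.63 ± 0.10), COL7A1 (-0.57 ± 0.14) and COL9A3 (-0.47 ± 0.10) were lower too. Smaller differences of the same sign were called for COL5A1 (-0.42), COL5A2 (-0.32), COL11A1 (-0.32), COL4A1 (-0.27) and COL4A2 (-0.25). The call of COL7A1 was lost without Dox-labelled replicate 1 (-0.52, adjusted p = 0.051). Those of COL4A1 and COL4A2 were lost without RA-labelled replicate 1 (adjusted p = 0.0717 and 0.0709), RA-labelled replicate 3 (0.0601 and 0.057) or Dox-labelled replicate 2 (0.0652 and 0.0534). Dox-labelled replicate 3 (COL4A1, 0.0576) and Dox-labelled replicate 1 (COL4A2, 0.075) also decided 1 of these calls each. The dimmer probe sets of COL4A1 and COL4A2 differed by -1.04 and -1.08 (adjusted p = 2.08e-05 and 8.09e-05, adjusting for every probe set). The COL4A6 call was lost without RA-labelled replicate 3 (0.37, adjusted p = 0.0684) or Dox-labelled replicate 2 (0.41, adjusted p = 0.0744). The other COL4A6 probe sets were also higher on the Dox-labelled arrays (0.78 and 0.61, adjusted p = 0.000127 and 0.0434 over all probe sets). COL1A2 and COL22A1 were not called by the chosen probe set, but another, dimmer on average, was. These differed by -0.74 for COL1A2 (adjusted p = 0.00174 over all probe sets) and 0.43 for COL22A1 (0.0401).

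Among genes that act on the chains, 6 of 19 for modification and folding were lower and 1 was higher on the Dox-labelled arrays, and 5 of 10 basement membrane partners were lower and 2 higher, where 12.2% of all genes were lower and 13.7% higher. Of the 14 genes for cleavage and cross-linking, 7 were higher, led by PCOLCE (1.33), ADAMTS3 (1.28) and ADAMTS14 (1.25), and 5 were lower, TLL2 (-1.27) among them. The lysyl oxidases went both ways, with LOX (0.44) and LOXL2 (0.33) higher and LOXL4, LOXL1 (-0.98) and LOXL3 (-0.75) lower. LOXL4 had the largest of these differences (-2.84 ± 0.13, adjusted p = 3.34e-07) and ITGA11, a receptor for fibrillar collagen, was lower too (-1.89 ± 0.15). NID2 (2.71 ± 0.26, adjusted p = 4.1e-05), SOX9 (2.38 ± 0.11) and the mesenchyme marker POSTN (3.38 ± 0.13) were higher. Of the 11 mesenchyme markers, 5 were higher and 2 lower, PDGFRB (-0.96) and THY1 (-0.80). SOX9, HAPLN1 and COL2A1, all known from cartilage, were higher on the Dox-labelled arrays, but COL9A1 was not called (0.39 ± 0.38, adjusted p = 0.535), and MATN3 and CNMD of the same marker list were lower (-1.04 and -1.69). With each array centred on its median, 7 collagen genes were called higher and 17 lower, and the share of calls that were higher over all genes went from 53.0% to 39.6%. If the labels of these groups are exchanged, each of these differences keeps its size and turns its sign.

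The difference between the 2 changes from day 0 to day 6, tested in 1 fit, was called higher for 4 and lower for 12 collagen genes, where 24.2% of all genes passed (11.7% higher and 12.5% lower). At 2-fold or more, it was called higher for COL2A1, COL23A1 and COL14A1 and lower for COL16A1, against 4.31% and 3.81% of all genes. Of the fibrillar genes, COL27A1, COL5A2, COL11A1 and COL5A1 had the lower change in the Dox-labelled series, as had COL4A5, COL4A2 and COL4A1 of type IV. These directions rest on the day 6 labels: with them exchanged, 13 of the 16 called differences turned sign, 2 were no longer called and only COL13A1 kept its sign and its call (-1.25).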

How the data were processed

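Biotin-labelled total RNA of H9 cells, extracted with TRIzol, was hybridised to 12 arrays, per the labels' protocols. The authors deposited 1 intensity per probe set on a linear scale. Their background correction, probe summary and array scaling are not stated in the labels. After trimming 2% of probe sets at each end, the mean intensity was 499.9 on every array, so levels are relative to the rest of an array. Between 23.1% and 26.5% of an array's intensities were under 16. Of 54675 probe sets, 41097 had a single symbol in the platform's annotation, 1801 several, and 11777 were not listed. Symbols of 41043 were updated through the gene ID (RefSeq, GRCh38.p14).

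Values were tested as log2(intensity + 16), a scale that shrinks changes at low signal, with limma 3.58.1 (lmFit and eBayes, R 4.3.3) on all 12 arrays, 1 mean per group, with Benjamini-Hochberg adjustment over 19775 genes (54675 probe sets for single probe sets) and a threshold of 0.05. Standard errors come from that fit. The fit was tested on simulated data. Members and lists were chosen with earlier results of these data known. Every array's value is given for members called without overlap of arrays in at least 1 comparison and with a group mean at or above the median gene. Of other lists, up to 3 of the largest called changes each way in a comparison are named, with their values in the other series. The lysyl oxidases called between the day 6 groups are all named. Alternatives were the scaling, pseudocount, probe set, filter, variance model, array weights, arrays in the fit, a replicate block and leaving out each array. COL17A1 was not analysed here, nor were scan dates. The number of arrays limits the precision.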

Additional observations from a re-analysis of the deposited data

Results flagged for a closer look

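In 16 collagen genes, the change from day 0 to day 6 differed between the Dox-labelled and the RA-labelled series by limma's test of the difference (adjusted p under 0.05, where 24.2% of all genes passed). The difference is the Dox-labelled change minus the RA-labelled change on the log2 scale, and all 4 groups of 3 arrays enter it. It was positive for COL2A1 (2.70), COL23A1 (1.40), COL14A1 (1.15) and COL26A1 (0.98). Of these, COL2A1 is the only one whose 2 changes had opposite called signs, while COL23A1, COL14A1 and COL26A1 had lower fitted values at day 6 in both series, by less in the Dox-labelled one. It was negative for COL16A1 (-1.13), COL27A1 (-0.98), COL9A3 (-0.65), COL4A5 (-0.61), COL6A2 (-0.61) and COL5A2 (-0.60). Smaller negative values were found for COL11A1 (-0.58), COL4A2 (-0.55), COL13A1 (-0.53), COL6A1 (-0.52), COL4A1 (-0.45) and COL5A1 (-0.36). COL4A1, COL4A2, COL4A5, COL5A1, COL5A2, COL11A1 and COL16A1 rose in both series, by less in the Dox-labelled one. The COL6A2 value was not called without d0 replicate 1, RA-labelled replicate 2 or Dox-labelled replicate 2 (-0.56, -0.57 and -0.56). With its probe sets averaged it was -0.056 (adjusted p = 0.838), and the second probe set of COL6A2 had a difference of 0.49. Averaging also ended the calls of COL4A5 (-0.48), COL6A1 (-0.54), COL13A1 (-0.51) and COL14A1 (0.47). Each value holds the day 0 difference with Dox as well as the day 6 difference. With the day 6 labels exchanged, 13 of the 16 turned sign, 7 of them with a call: COL2A1 (-4.11), COL26A1 (-1.58), COL14A1 (-1.14), COL27A1 (1.45), COL6A1 (0.995), COL6A2 (0.84) and COL5A1 (0.48). The other turned values, not called, were COL23A1 (-0.15), COL9A3 (0.29), COL16A1 (0.13), COL4A1 (0.085), COL11A1 (0.052) and COL5A2 (0.046). COL4A5 and COL4A2 were no longer called (-0.33 and -0.055), and COL13A1 remained lower with a call (-1.25).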

How the results depend on the processing

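Of 108 called changes of collagen genes over the 5 contrasts, 29 were lost in at least 1 alternative named in the methods. The other 79 were called the same way in every alternative that tested the gene. The filter on genes above the median left out dim genes, so their calls were not tried under it. Averaging probe sets lost 20 calls, the 6 arrays alone 12, and centring on the median 4. Only COL1A2 turned its sign with a call, being -0.25 between the day 6 groups when probe sets were averaged (0.001 otherwise). Deviations from the group means of arrays with the same replicate number correlated at -0.01 to 0.05 (18 pairs, median 0.013). Those of other arrays correlated at -0.06 to 0.02 (median -0.006). An array correlated best with its own number in 24 of 36 choices among the 3 arrays of another group. That is above the 1 in 3 expected if the numbers carried no information. The correlations were small, and the main fit did not use the numbers as pairs. The replicate block changed 8 single calls and no count by over 1.5 times: with it, 8 rose and 3 fell with Dox at day 0, 8 and 14 were called between the day 6 groups, 18 and 10 in the RA-labelled and 19 and 11 in the Dox-labelled series. With Dox at day 0, the 8 rises became 4 with median centring, 5 with averaged probe sets, 14 with a trended robust variance and 4 with the 6 arrays alone, and the 4 falls, all among other chains, became 2 with averaged probe sets. The 3 fibrillar rises became 1, 1, 5 and 1 in these settings, the 2 type IV rises 1 with centring, 4 with the trend and 1 with 6 arrays, and the 3 rises of other chains 5 with a pseudocount of 64 or the trend. A fibrillar fall (0 otherwise) was called once (1) with centring, the filter on genes above the median, or the trend. Between the day 6 groups, fibrillar rises went from 2 to 1 with a pseudocount of 1, the type IV calls from 1 and 2 to 0 and 0 with 6 arrays, and rises of other chains from 4 to 2 with the filter. Falls from day 0 to day 6 went from 11 to 4 in both series with that filter, which tests fewer genes (other chains 9 to 3 and 8 to 4, fibrillar 1 to 0 in the Dox-labelled series). Type IV falls went from 1 to 0 (averaging, filter or trend) in the RA-labelled and from 2 to 1 (averaging) or 0 (filter) in the Dox-labelled series. The cause of the others was not tested.

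Leaving out 1 array gave 4 to 7 rises with Dox at day 0 (fibrillar 1 to 2, type IV 1 to 3, other 2 to 3) and 3 to 5 falls. Between the day 6 groups it gave 6 to 8 higher and 11 to 14 lower (type IV 0 to 1 and 0 to 2, without RA-labelled replicate 1 or 3 or Dox-labelled replicate 1 or 2). In the RA-labelled series it gave 18 to 19 rises and 8 to 11 falls (type IV 0 to 1, without d0 replicate 1 or RA-labelled replicate 3), and in the Dox-labelled series 18 to 19 and 11 to 12. With the day 6 labels exchanged, an alternative added after seeing the data, fibrillar falls from d0 went from 1 to 0 and type IV falls from 1 to 2, and from d0 with Dox type IV falls went from 2 to 1. Signs then turned from d0 for COL2A1 (1.90), COL6A1 (-0.61), COL27A1 (-0.14, not called) and COL13A1 (0.15, not called), and from d0 with Dox for COL2A1 (-2.202), COL6A1 (0.38) and COL4A6 (-0.36). The difference between the changes was then called higher for 9 and lower for 7 collagen genes (4 and 12 otherwise), where 18.1% of all genes were called. It turned for COL2A1 (-4.106), COL26A1 (-1.579), COL14A1 (-1.137), COL23A1 (-0.149), COL27A1 (1.45), COL6A1 (0.995), COL6A2 (0.839), COL5A1 (0.476), COL9A3 (0.285), COL16A1 (0.133), COL4A1 (0.085), COL11A1 (0.052) and COL5A2 (0.046), and, among genes not called otherwise, COL4A6 (-0.916), COL7A1 (0.867), COL6A3 (1.216), COL8A1 (1.577) and COL8A2 (1.768). Of the chain ratios, also chosen after seeing the data, the second brightest probe set turned COL1A2/COL1A1 (-1.99 and -2.12), COL4A5/COL4A6 in the Dox-labelled series (-0.42), COL6A2/COL6A1 in the RA-labelled series (-0.056) and COL5A1/COL5A2 between the day 6 groups (0.287, and 0.066 with averaged probe sets). Dim genes limit the results: 5 collagen genes had a mean under 16 on the RA-labelled arrays and 3 on the Dox-labelled arrays.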
